A study of Homo sapiens with 6 samples.

Results

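Clathrin-coated vesicles carry cargo from the plasma membrane and between the trans-Golgi network and endosomes. The 46 genes described here were chosen by name: the clathrin chains, the subunits of the adaptor complexes AP-1 to AP-4, the GGA adaptors, the epsins and a set of endocytic accessory proteins. All 46 were found among the 60605 genes of the deposited table, and 45 had enough reads to be tested. The study asked how overexpression of ELAPOR1, a transmembrane protein associated with endosomes and lysosomes, changes gene expression in SW620, an established human colorectal cancer line. Poly(A) RNA was sequenced from 3 libraries of SW620 cells carrying ELAPOR1 in the lentiviral vector pLVX-IRES-Puro and 3 libraries of SW620 cells carrying the same vector empty. Lentivirus (multiplicity 20), puromycin (2 ug/ml) and DMEM with 10% fetal bovine serum were the same for both groups, so the controls carry vector sequence and drug selection too. The labels do not say whether each population was a clone or a pool, nor whether the 3 libraries of a group came from separate cultures, so the spread behind each p-value is that between libraries and may be technical.

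As background, clathrin itself does not bind membrane or cargo. Adaptors link it to both: AP-2 at the plasma membrane, AP-1 and the GGAs at the trans-Golgi network and endosomes, AP-3 on the route to lysosomes and related organelles, and AP-4 at the trans-Golgi network without clathrin. Each AP complex has a pair of large chains, a medium (mu) chain that recognises tyrosine-based sorting signals and a small (sigma) chain. AP1M2 encodes mu1B, which takes the place of the mu1A chain of AP1M1 in the AP-1B complex of many epithelial cells. AP-1B sorts cargo to the basolateral surface. Epsins bind phosphoinositides, clathrin and ubiquitinated cargo and help to bend the membrane.

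The libraries held 16457436 to 19268166 counts in the ELAPOR1 group and 16401813 to 20571924 in the vector group. ELAPOR1 itself had 349496, 404278 and 370187 counts in ELAPOR1 libraries, against 225, 227 and 144 in vector libraries, as the labels state. The 10 markers of colon epithelium summed to 7854 to 7868 library-scaled counts (CPM) in ELAPOR1 libraries and 8438 to 8833 CPM in vector libraries. KRT8 and KRT18 held most of that sum, at means of 3782 and 2381 CPM in ELAPOR1 cells and 4163 and 2425 CPM in vector cells. CDX2, CDH17, KRT20 and LGALS4 were far lower, at means of 22.0, 20.2, 0.677 and 0.898 CPM in ELAPOR1 cells. In vector cells these 4 stood at 32.4, 9.75, 2.20 and 0.415 CPM. By edgeR 5 of the 10 markers were called lower in ELAPOR1 cells (background 11.4% of all tested genes) and 1 higher (background 10.0%). The lower genes were KRT8, KRT19, KRT20, CDX2 and CDH1, with log2 fold changes of -0.14, -0.45, -1.67, -0.56 and -0.76. The higher gene was CDH17, at 1.05, and EPCAM, KRT18, VIL1 and LGALS4 did not pass. Summed fibroblast markers stood at 24.9 to 30.1 CPM in ELAPOR1 libraries and 17.4 to 18.8 CPM in vector libraries. Of these 6 genes LUM, with 2086 of the counts, was called higher (log2 fold change 0.64, edgeR adjusted p = 3.90e-07), COL1A1 (275 counts over the 6 libraries) and PDGFRB (80) did not pass, and COL1A2, COL3A1 and DCN had 1, 1 and 2 counts. Summed neuronal markers stood at 202 to 214 CPM in ELAPOR1 libraries and 182 to 189.5 CPM in vector libraries. Of these 6 genes SYT1, which held most of the sum, was called higher (log2 fold change 0.14, edgeR adjusted p = 0.00218), SYP did not pass, and SYN1, NEFL, RBFOX3 and SNAP25 had 16, 1, 7 and 0 counts. The 4 endothelial markers summed to 1.97 to 2.81 CPM in ELAPOR1 libraries and 2.42 to 2.73 CPM in vector libraries, with CDH5 and KDR at 0, and none of them was called. The part of any of these markers in the results below was not tested.

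Among the 45 tested genes, a pair stood far from the rest: in ELAPOR1 cells the epsin gene EPN2 was 10.7-fold lower and the adaptor gene AP1M2 11.4-fold higher. By edgeR's quasi-likelihood test, with Benjamini-Hochberg adjusted p under 0.05 over all 16003 genes tested, 12 of the 45 genes were called, 5 higher (background 10.0% of all tested genes) and 7 lower (background 11.4%). With library sizes alone in place of TMM scaling, the split was 2 higher and 9 lower. The 12 calls are 26.7% of the 45 genes, against 21.4% of all tested genes. EPN2 and AP1M2 were the only 2 called with a change of 0.3 or more on the log2 scale, a call and size reached by 9.68% of all tested genes. Both were past 1, and 2.26% of all tested genes were called with a change of at least 1. The other 10 called genes changed by 0.12 to 0.28 on the log2 scale. The median log2 fold change of the 45 genes was -0.0062, against 0.0041 over all tested genes. Counts of calls depend on the setting for the small changes: leaving out 1 library gave 2 to 5 higher and 3 to 7 lower genes, with the lowest counts without ELAPOR1 replicate 2 or 3 (2 higher each) and without vector replicate 3 (3 lower).

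**Figure D1:**
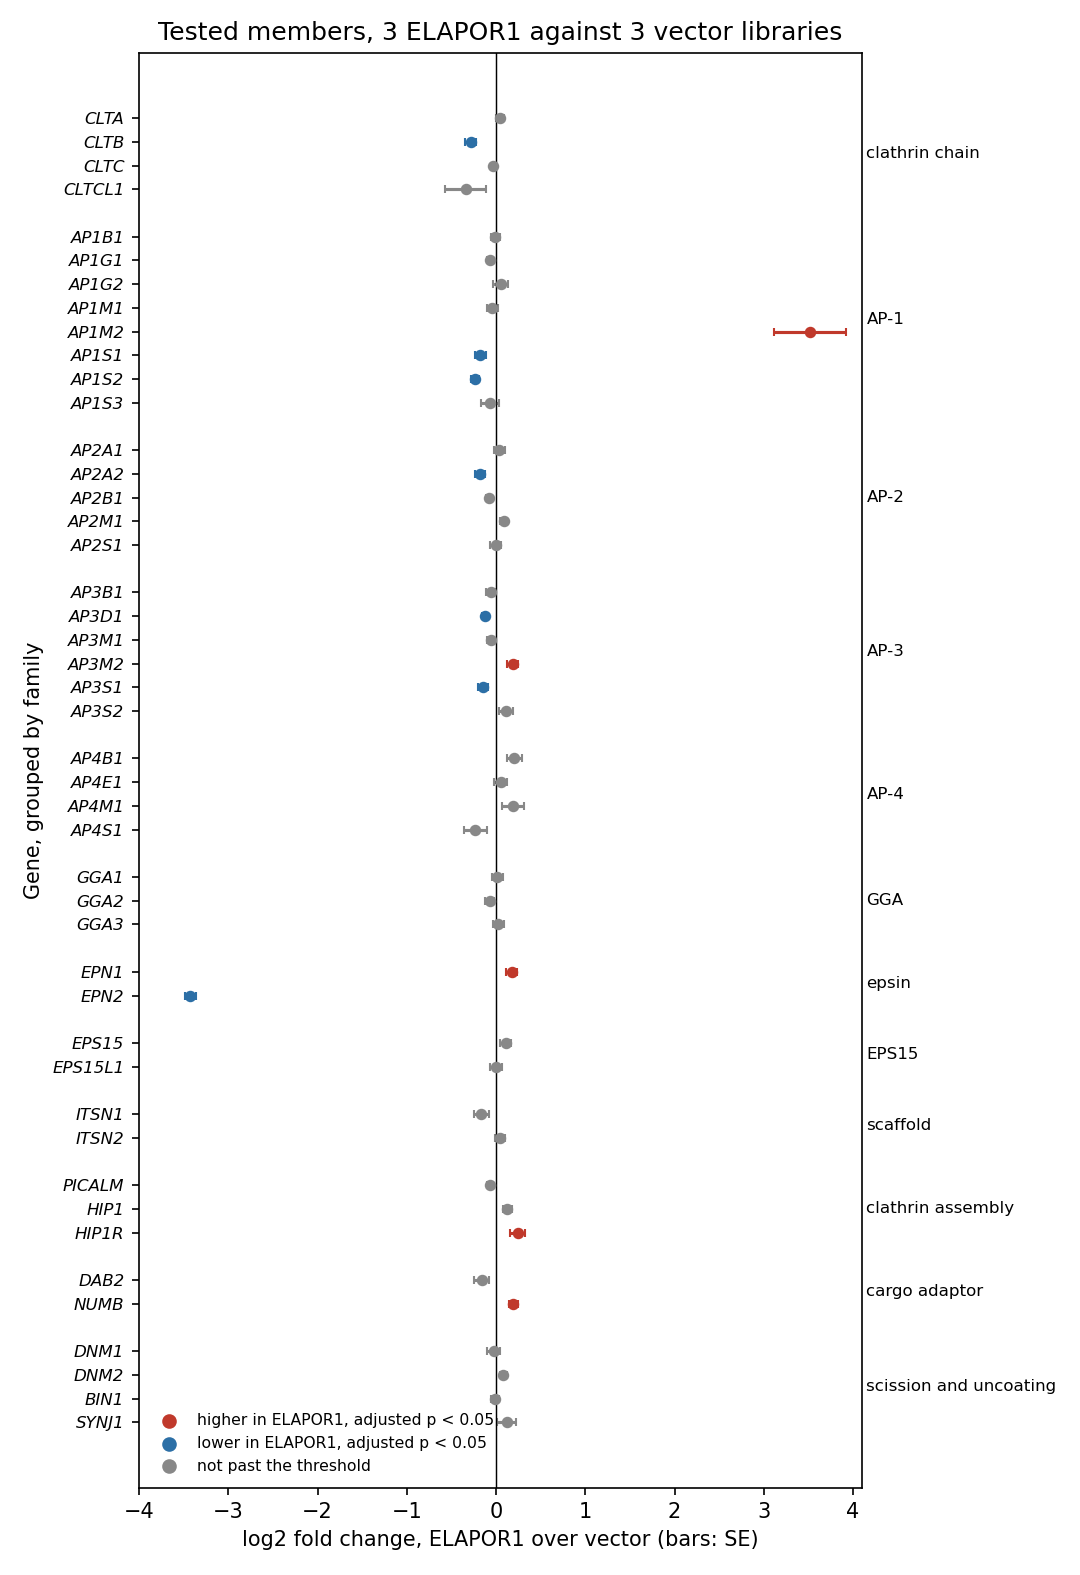
Log2 fold change of ELAPOR1 over vector libraries for the 45 tested genes, by family, from edgeR on 3 against 3 libraries, with bars for the standard error. EPN2 at -3.43 and AP1M2 at 3.51 lie far outside the range of the other 43 genes, which runs from -0.34 to 0.24.

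EPN2 was the most abundant epsin gene of the vector cells and fell in ELAPOR1 cells. It lies on chromosome 17, 19215615 to 19336715, plus strand (GRCh38). It had 207, 260 and 228 counts in ELAPOR1 libraries, against 2685, 2820 and 2435 in vector libraries, so the groups are far apart. The mean level was 13.03 ± 0.472 CPM in ELAPOR1 cells and 140 ± 6.25 CPM in vector cells (SD, n = 3 each). The fit gave a log2 fold change of -3.43 (SE 0.062, edgeR adjusted p = 1.80e-55), and this ranged from -3.46 to -3.39 when 1 library was left out. Only 0.025% of the tested genes had a lower log2 fold change. The authors' deposited table gives EPN2 a log2 fold change of -3.43. Among genes with deposited counts, the only one that shares exonic bases with EPN2 in GENCODE 29, AC106017.2, had 0 counts. No 50-base word of EPN2 transcripts occurs in transcripts of EPN1 or EPN3. Neighbours were taken outside the EPN2 span only, 3 tested genes on each side, and genes overlapping the span were left out. Of these 6, GRAP, an adaptor of receptor signalling 168604 bases away, was called lower, at -0.67 (edgeR adjusted p = 0.0162). MAPK7, the closest of the 6, stood at 0.12 (adjusted p = 0.607).

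Its paralogs did not share this fall: EPN1 was slightly higher in ELAPOR1 cells and EPN3 was too low to test. EPN1, the broadly expressed epsin (chromosome 19, 55675226 to 55709858, plus strand), had 45.1, 51.5 and 49.0 CPM in ELAPOR1 libraries, against 43.1, 41.2 and 45.1 CPM in vector libraries. Its lowest ELAPOR1 library and highest vector library were almost level. EPN1 rose by 0.17 on the log2 scale (SE 0.065, edgeR adjusted p = 0.0432). That call was lost in 12 of 17 alternative settings, among them without ELAPOR1 replicate 2 or 3 (adjusted p = 0.253 and 0.115) and without vector replicate 1 or 2 (0.0830 and 0.192). EPN3, an epsin of epithelial tissues (chromosome 17, 50532682 to 50543750, plus strand), had 6, 8 and 9 counts in ELAPOR1 libraries, against 9, 7 and 2 in vector libraries. The ratio of its summed, library-scaled counts was 1.36, with an exact 95% interval for counting error of 0.703 to 2.68, so no difference was detectable at this depth. EPN3 also shares 478 exonic bases with SPATA20 on the same strand, which had 4057 counts, so its few reads are uncertain.

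On the FPKM scale, which is per exonic length and allows genes to be compared, the summed level of the 3 epsins was 4.34 ± 0.245 FPKM in ELAPOR1 cells and 19.1 ± 0.801 FPKM in vector cells (SD, n = 3 each). EPN2 made up 36.2%, 34.5% and 34.2% of that sum in ELAPOR1 libraries, against 86.3%, 86.9% and 87.0% in vector libraries. EPN1 was the larger share in all 3 ELAPOR1 libraries, and EPN2 in all 3 vector libraries. The log2 ratio of EPN2 to EPN1 averaged -0.85 ± 0.065 in ELAPOR1 libraries and 2.75 ± 0.031 in vector libraries, a difference of -3.60. The exact two-sided permutation test over the 6 libraries gave p = 0.10, the smallest that 3 against 3 allows, and 0.10 after adjustment over the 2 paralog ratios tested. Both ratios were chosen with earlier results of these data known, so their p-values describe the separation and add no support. FPKM here uses the length of all annotated exons, 8517 bases for EPN2 and 17616 bases for EPN1, so the shares depend on how much of that length is transcribed. As a share of counts, EPN2 took 21.9%, 20.7% and 20.5% of epsin counts in ELAPOR1 libraries, against 75.9%, 76.7% and 76.5% in vector libraries.

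The sequence just upstream of a RefSeq start is shown for the 2 genes with the widest gap between the groups, EPN2 and AP1M2, and for EPN1. Sequences are from RefSeq (GRCh38.p14), the longest stretch of the 250 bases before the start that overlaps no GENCODE 29 exon, written 5′ to 3′ on the strand of the gene. Capitals mark the GC box GGGCGG, searched on both strands. The EPN2 stretch lies at chr17:19237126-19237340 on the plus strand, the EPN1 stretch at chr19:55674976-55675225 on the plus strand and the AP1M2 stretch at chr19:10587316-10587562 on the minus strand. The EPN1 and AP1M2 stretches adjoin the gene starts used for counting. The EPN2 stretch lies inside the gene span given above, downstream of its first annotated start, so it belongs to another start of EPN2 and is not the counterpart of the EPN1 stretch; which start the reads came from is not known from gene counts.
EPN2: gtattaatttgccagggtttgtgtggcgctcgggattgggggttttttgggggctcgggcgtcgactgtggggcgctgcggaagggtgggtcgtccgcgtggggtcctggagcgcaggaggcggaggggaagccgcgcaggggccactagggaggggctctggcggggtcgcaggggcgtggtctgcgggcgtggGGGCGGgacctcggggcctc
EPN1: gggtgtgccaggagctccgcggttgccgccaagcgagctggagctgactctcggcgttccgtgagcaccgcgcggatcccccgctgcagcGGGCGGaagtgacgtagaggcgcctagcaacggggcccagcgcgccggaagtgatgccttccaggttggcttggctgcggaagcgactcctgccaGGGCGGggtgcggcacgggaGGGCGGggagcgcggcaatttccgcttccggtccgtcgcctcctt
AP1M2: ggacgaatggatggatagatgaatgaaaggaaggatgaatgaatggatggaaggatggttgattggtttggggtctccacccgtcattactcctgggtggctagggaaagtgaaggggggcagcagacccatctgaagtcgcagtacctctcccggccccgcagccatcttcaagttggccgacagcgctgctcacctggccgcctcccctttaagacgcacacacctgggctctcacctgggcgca
The 215 bases of EPN2 hold 21 CG dinucleotides, a GC content of 71.6% and 1 match to the GC box, and the 250 bases of EPN1 hold 31 CG dinucleotides, a GC content of 71.2% and 3 matches. The 247 bases of AP1M2 hold 10 CG dinucleotides, a GC content of 57.5% and 0 matches. Of the 35116 promoters in the RefSeq table, 39.0% hold a match in the window used for EPN2, 42.6% in that of EPN1 and 42.3% in that of AP1M2. A match or its absence describes these letters only.

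AP1M2 was close to the limit of detection in vector cells and rose in ELAPOR1 cells. It lies on chromosome 19, 10572671 to 10587315, minus strand. It had 54, 64 and 68 counts in ELAPOR1 libraries, against 10, 3 and 4 in vector libraries, so the groups did not overlap, and it reached the test only through its ELAPOR1 libraries. The mean level was 3.49 ± 0.280 CPM in ELAPOR1 cells and 0.2996 ± 0.189 CPM in vector cells (SD, n = 3 each). The fit gave a log2 fold change of 3.51 (SE 0.403, edgeR adjusted p = 6.59e-11). Summed over each group, 186 counts in ELAPOR1 libraries against 17 in vector libraries give an 11.7-fold ratio after library scaling, with an exact 95% interval for counting error of 7.09 to 20.4. Vector replicate 1 holds 10 of those 17 counts, and without it the log2 fold change was 4.16; without vector replicate 2 or 3 it was 3.15 or 3.40. No other annotated gene shares exonic bases with AP1M2, and none of its 2462 words of 50 bases occurs in AP1M1 transcripts. Of the 6 nearest tested genes outside the AP1M2 span, the nearest on either side were called lower. CDKN2D, a cell cycle inhibitor gene 3612 bases away, stood at -0.88 (edgeR adjusted p = 0.000228). SLC44A2, a choline transporter gene 15142 bases away, stood at -0.84 (adjusted p = 0.00209). The other 4 had log2 fold changes of -0.02 to 0.22 with adjusted p between 0.161 and 0.954.

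AP1M1, which encodes the ubiquitous mu1A chain (chromosome 19, 16197854 to 16245906, plus strand), had 43.5, 45.2 and 44.7 CPM in ELAPOR1 libraries, against 45.7, 44.7 and 46.9 CPM in vector libraries. The groups overlapped (log2 fold change -0.04, SE 0.064, edgeR adjusted p = 0.735). AP1M2 made up 32.7%, 32.0% and 35.3% of the summed mu1 FPKM in ELAPOR1 libraries, against 6.57%, 2.15% and 3.19% in vector libraries. Its exonic length is 2214 bases and that of AP1M1 is 14094 bases, and by counts AP1M2 took 7.10%, 6.88% and 7.87% of mu1 reads in ELAPOR1 libraries, against 1.10%, 0.324% and 0.515% in vector libraries. The log2 ratio of AP1M2 to AP1M1 FPKM averaged -1.003 ± 0.112 in ELAPOR1 libraries and -4.75 ± 0.851 in vector libraries, a difference of 3.75 (exact two-sided permutation p = 0.10, the smallest possible). This ratio too was chosen with earlier results known, so that p adds no support. On either scale AP1M1 remained the larger share in all 6 libraries.

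**Figure D2:**
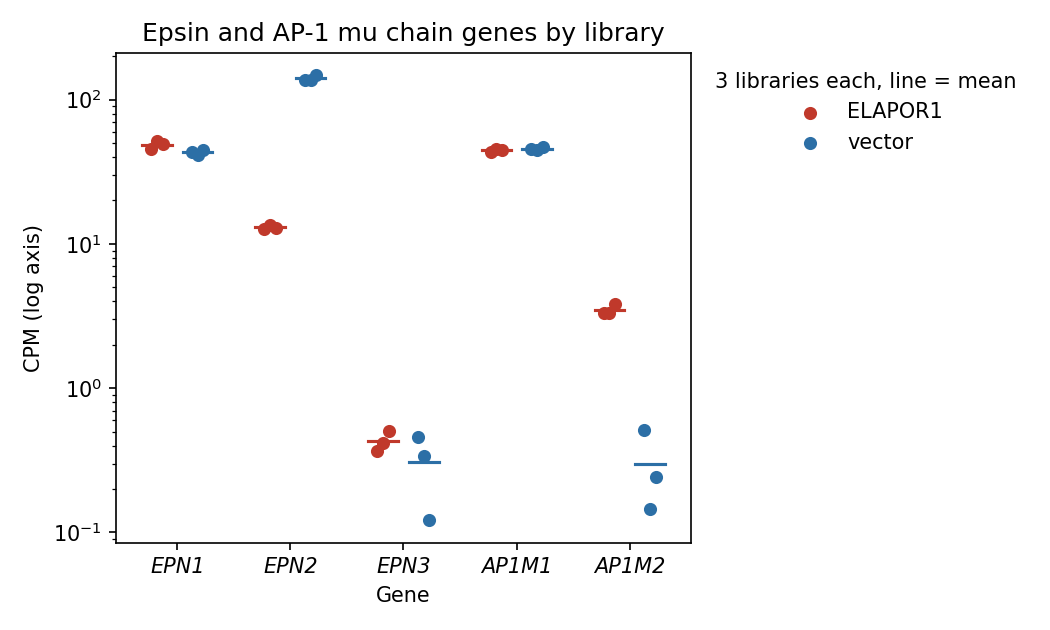
CPM on a log axis for the 3 epsin genes and the 2 AP-1 mu chain genes, with a point per library and a line at the mean of 3 libraries in each group. ELAPOR1 libraries lie near 13 CPM for EPN2 and vector libraries near 140 CPM; AP1M2 is higher in ELAPOR1 libraries, while AP1M1 overlaps between the groups.

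**Figure D3:**
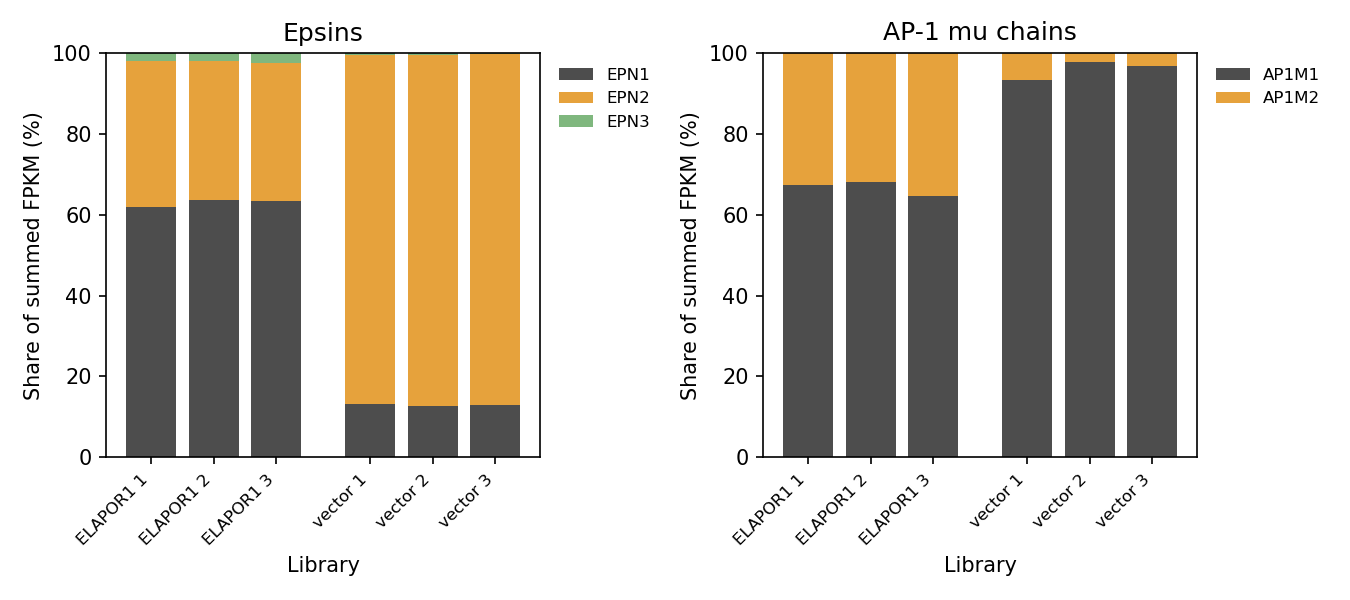
Share of each gene in the summed FPKM of the epsins (left) and of the AP-1 mu chains (right), with a stacked bar per library. EPN2 makes up 34.2% to 36.2% in ELAPOR1 libraries, against 86.3% to 87.0% in vector libraries, and AP1M2 reaches 32.0% to 35.3% in ELAPOR1 libraries, against 2.15% to 6.57% in vector libraries.

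Of the other AP-1 subunits, the sigma chain genes AP1S2 and AP1S1 passed the test, and only the call of AP1S2 held in every alternative setting. AP1S2, the X-linked sigma1B gene, had 94.8, 94.9 and 96.3 CPM in ELAPOR1 libraries, against 110, 118 and 109 CPM in vector libraries. The groups did not overlap, and AP1S2 fell by a log2 fold change of -0.24 (SE 0.045, edgeR adjusted p = 3.81e-05), a call kept in all 17 of them. AP1S1, the sigma1A gene, had 59.1, 49.7 and 58.8 CPM in ELAPOR1 libraries, against 55.6, 65.3 and 68.3 CPM in vector libraries. Here the groups overlapped, and the log2 fold change was -0.17 (edgeR adjusted p = 0.0359). The call was lost without ELAPOR1 replicate 2 (adjusted p = 0.386), vector replicate 2 (0.155) or vector replicate 3 (0.278). It was also lost with the default and local trends of DESeq2 (adjusted p = 0.176 and 0.363) and with limma on FPKM. AP1S3, the sigma1C gene, had 2.89, 2.71 and 3.17 FPKM in ELAPOR1 libraries, against 2.88, 3.43 and 3.01 FPKM in vector libraries, and did not pass (log2 fold change -0.07, SE 0.10, adjusted p = 0.693). The large chains did not pass either. AP1B1 (beta1) had 16, 15.8 and 15.2 FPKM in ELAPOR1 libraries, against 16.5, 15.8 and 15.6 FPKM in vector libraries (log2 fold change -0.01, SE 0.045, edgeR adjusted p = 0.95). AP1G1 (gamma1) had 27.7, 26.4 and 26.4 FPKM in ELAPOR1 libraries, against 29.2, 27.7 and 28.96 FPKM in vector libraries (log2 fold change -0.07, SE 0.033, edgeR adjusted p = 0.125), and passed only with library sizes alone, at 0.0322. AP1G2 (gamma2) had 4.37, 3.88 and 4.83 FPKM in ELAPOR1 libraries, against 4.68, 3.83 and 4.28 FPKM in vector libraries (log2 fold change 0.05, SE 0.083, edgeR adjusted p = 0.729). The groups overlapped for each of these large chains. AP1G2 shares exonic bases with 3 genes on the opposite strand that had 81 to 445 counts, so its reads may not all be its own. AP1S1, at a mean of 35.0 FPKM over the 6 libraries, and AP1G1, at 27.7 FPKM, were the most abundant AP-1 genes, and AP1M2, at 0.850 FPKM, the least.

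Among the clathrin chains, the light chain gene CLTB fell and the others did not pass. CLTB had 48.2, 50.03 and 46.7 CPM in ELAPOR1 libraries, against 52.5, 60.2 and 64.1 CPM in vector libraries, with every ELAPOR1 library below every vector library. Its log2 fold change was -0.28 (SE 0.062, edgeR adjusted p = 0.000299). The other light chain gene, CLTA, was the most abundant of the 46 genes, at 42.2, 48.7 and 44.6 FPKM in ELAPOR1 libraries, against 43.8, 44.2 and 46.0 FPKM in vector libraries. The heavy chain gene CLTC, which encodes the leg of the triskelion, had 35.1 ± 0.551 FPKM in ELAPOR1 cells and 36.4 ± 1.04 FPKM in vector cells. CLTA and CLTC had log2 fold changes of 0.04 and -0.03 (edgeR adjusted p = 0.608 and 0.539). CLTCL1, the second heavy chain gene, was low, with 43, 55 and 59 counts in ELAPOR1 libraries, against 61, 80 and 70 in vector libraries. The groups overlapped in CPM, and its log2 fold change of -0.34 (SE 0.234) did not pass (edgeR adjusted p = 0.336).

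AP-2, the adaptor of the plasma membrane, showed 1 call among 5 genes, or 20%, against 21.4% of all tested genes. AP2A2, an alpha chain gene, had 65.4, 62.9 and 61.6 CPM in ELAPOR1 libraries, against 70.8, 70.4 and 73.6 CPM in vector libraries, without overlap. It fell by a log2 fold change of -0.18 (SE 0.053, edgeR adjusted p = 0.0101), and the adjusted p was 0.0637 without ELAPOR1 replicate 3 and 0.0599 without vector replicate 3. The other alpha chain gene, AP2A1, had a log2 fold change of 0.04 (edgeR adjusted p = 0.752). The mu2 gene AP2M1, the most abundant AP-2 gene, had 41.0, 41.0 and 40.4 FPKM in ELAPOR1 libraries, against 37.4, 40.6 and 39.3 FPKM in vector libraries. The lowest ELAPOR1 library lay just below the highest vector library in FPKM, whereas in CPM the groups did not overlap (194 to 197 CPM in ELAPOR1 libraries, 176 to 192 CPM in vector libraries). The log2 fold change of 0.08 did not pass (edgeR adjusted p = 0.104), except without vector replicate 2, at 0.0464. The beta2 gene AP2B1 had 26.1, 25.8 and 26.2 FPKM in ELAPOR1 libraries, against 28.1, 27.8 and 27.8 FPKM in vector libraries. Its groups did not overlap, but its log2 fold change of -0.08 did not pass (edgeR adjusted p = 0.114); it passed with library sizes alone and with limma on FPKM. AP2S1 (sigma2) stood at -0.01 on the log2 scale (adjusted p = 0.972).

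AP-3, which serves lysosomes and related organelles, had 3 calls among 6 genes, each small, where 21.4% of all tested genes were called. With 6 genes that share is not read as a trait of AP-3. AP3D1, the delta chain gene, had 172, 172 and 174 CPM in ELAPOR1 libraries, against 184, 189 and 192 CPM in vector libraries, and fell by a log2 fold change of -0.12 (SE 0.037, edgeR adjusted p = 0.00914). Without vector replicate 3 its adjusted p was 0.0628. AP3S1, a sigma3 gene, was at 57.9 ± 1.44 CPM in ELAPOR1 cells and 64.3 ± 3.70 CPM in vector cells, and the log2 fold change of -0.15 just passed (edgeR adjusted p = 0.0481). Leaving out any library but vector replicate 1 ended that call, with adjusted p between 0.0771 and 0.279, and AP3S1 shares 378 exonic bases with ATG12 on the opposite strand, whose log2 fold change was 0.01. AP3M2, the mu3 gene better known from brain, rose: it had 50.9, 51.6 and 51.6 CPM in ELAPOR1 libraries, against 46.9, 40.5 and 48.2 CPM in vector libraries, with a log2 fold change of 0.19 (edgeR adjusted p = 0.0262). That call was lost without any of the ELAPOR1 replicates (adjusted p between 0.0568 and 0.0762) and without vector replicate 2 (0.305), which is the lowest vector library. Its paralog AP3M1, the most abundant AP-3 gene, had 28.3, 27.5 and 29.9 FPKM in ELAPOR1 libraries, against 30.6, 29.7 and 30.3 FPKM in vector libraries. The groups overlapped (log2 fold change -0.06, edgeR adjusted p = 0.301), and AP3M1 shares 1109 exonic bases with VCL on the opposite strand. AP3B1 and AP3S2 had -0.06 and 0.11 (0.474 and 0.339).

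None of the 4 AP-4 genes or the 3 GGA genes passed by edgeR, where 21.4% of all tested genes did. The subunit genes of the clathrin-independent AP-4 stood at 0.20 for AP4B1, 0.05 for AP4E1, 0.19 for AP4M1 and -0.23 for AP4S1 on the log2 scale, at adjusted p of 0.0677, 0.679, 0.325 and 0.20. Every ELAPOR1 library had more AP4B1 (27.4, 29.3 and 28.7 CPM) than every vector library (23.3, 25.5 and 25.3 CPM). AP4E1 was the most abundant of them, at 4.93, 4.72 and 4.82 FPKM in ELAPOR1 libraries, against 4.91, 4.53 and 4.71 FPKM in vector libraries. AP4B1 shares 607 exonic bases with AP4B1-AS1 (115 counts) and 61 with DCLRE1B (3052 counts) on the opposite strand, against 2920 counts for AP4B1. AP4M1 overlaps exons of MCM7 and TAF6 on the opposite strand, which had 41968 and 3243 counts against 1185 for AP4M1, so its value is uncertain. The Golgi adaptors GGA1, GGA2 and GGA3 stood at 0.01, -0.07 and 0.03 on the log2 scale (adjusted p = 0.918, 0.336 and 0.823). GGA2 was the most abundant of the GGAs, at 10.1, 9.92 and 9.57 FPKM in ELAPOR1 libraries, against 10.4, 10.2 and 10.9 FPKM in vector libraries. GGA3 shares 213 exonic bases with MRPS7 on the opposite strand, which had 12875 counts against 5854 for GGA3.

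Of the 13 accessory genes, NUMB and HIP1R rose and the other 11 did not pass, where 21.4% of all tested genes were called. NUMB, an endocytic adaptor that antagonises Notch, had 90.7, 85.9 and 91.0 CPM in ELAPOR1 libraries, against 80.2, 77.2 and 76.4 CPM in vector libraries. The groups did not overlap, and the log2 fold change was 0.19 (SE 0.049, edgeR adjusted p = 0.00193). HIP1R, which links clathrin coats to actin, had 25.6, 28.2 and 26.5 CPM in ELAPOR1 libraries, against 23.5, 24.3 and 20.0 CPM in vector libraries, with a log2 fold change of 0.24 (edgeR adjusted p = 0.0368). That call was lost without ELAPOR1 replicate 2 (0.164), ELAPOR1 replicate 3 (0.0758) or vector replicate 3 (0.262). Its relative HIP1 did not pass (log2 fold change 0.13, adjusted p = 0.0782, but 0.0209 without vector replicate 1).

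PICALM, which recruits SNAREs and sizes the coat, was the most abundant accessory gene, at 28.9, 29.3 and 28.3 FPKM in ELAPOR1 libraries, against 31.2, 30.8 and 30.0 FPKM in vector libraries. The groups were apart by little, and its log2 fold change of -0.07 had an edgeR adjusted p of 0.198. The cargo adaptor DAB2 had a log2 fold change of -0.16 (edgeR adjusted p = 0.186). The scaffolds EPS15, EPS15L1, ITSN1 and ITSN2, which gather adaptors at the forming pit, did not pass (edgeR adjusted p = 0.208, 0.994, 0.164 and 0.679). EPS15 had 6.75, 6.58 and 6.90 FPKM in ELAPOR1 libraries, against 6.38, 6.31 and 6.31 FPKM in vector libraries, groups that did not overlap (log2 fold change 0.11). ITSN2 had 4.89, 5.15 and 5.60 FPKM in ELAPOR1 libraries, against 5.49, 4.90 and 5.02 FPKM in vector libraries, and here the groups overlapped. Every library with ELAPOR1 had less ITSN1 (22.0, 24.0 and 24.4 CPM) than every vector library (25.8, 26.5 and 26.7 CPM), a log2 fold change of -0.17, whereas EPS15L1 averaged 39.4 CPM in both groups. For vesicle scission and uncoating, the dynamin genes DNM1 and DNM2, the membrane-bending BIN1 and the phosphoinositide phosphatase SYNJ1 had log2 fold changes of -0.03, 0.08, -0.01 and 0.12 (adjusted p = 0.856, 0.149, 0.915 and 0.481). BIN1 was the most abundant of these, at 18.1, 17.1 and 17.4 FPKM in ELAPOR1 libraries, against 17.0, 18.2 and 18.7 FPKM in vector libraries. DNM1 shares 46 exonic bases with CIZ1 on the opposite strand, which had 7356 counts against 4023 for DNM1.

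**Figure D4:**
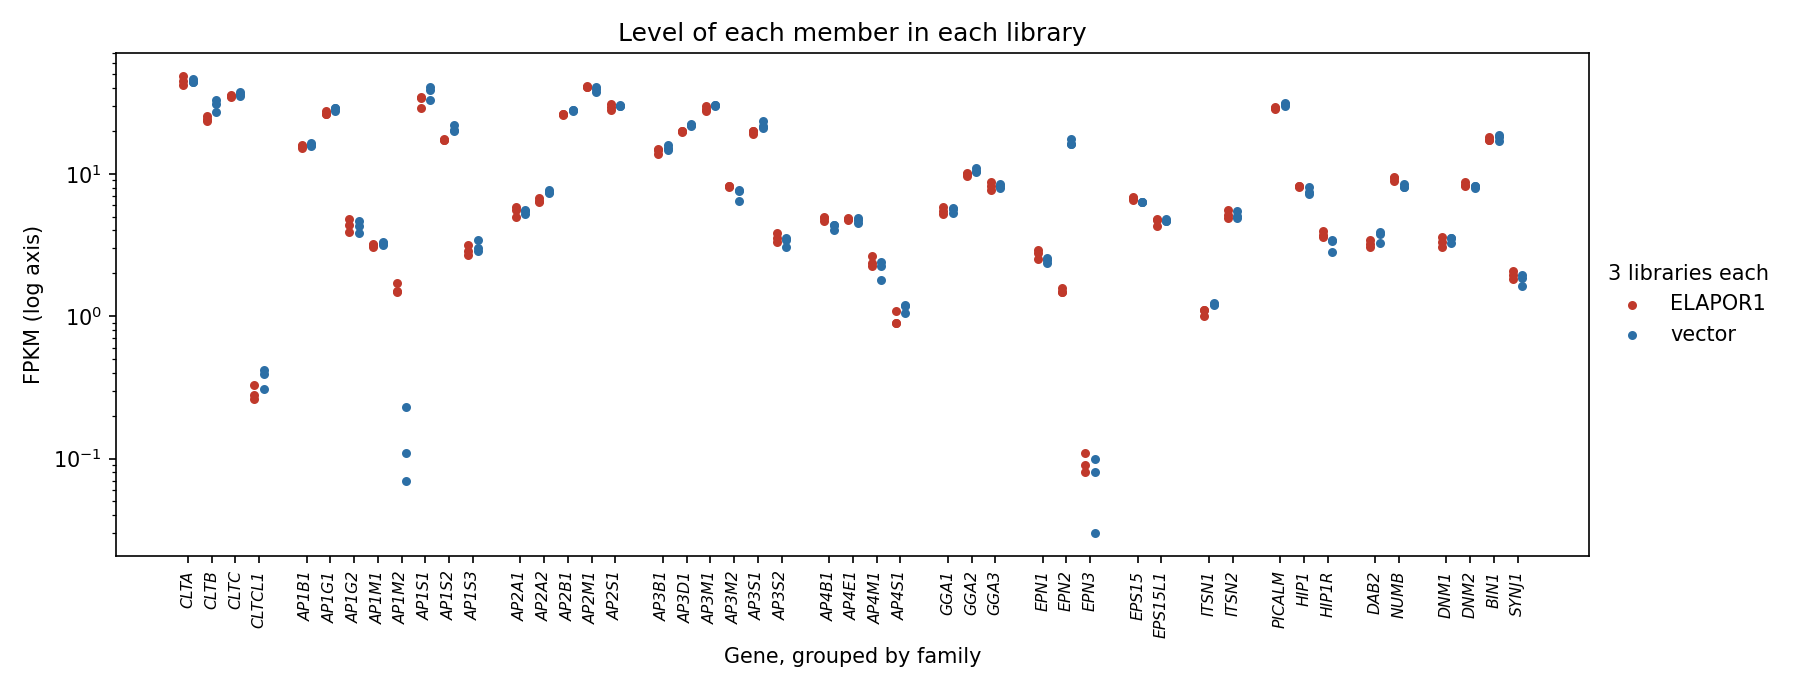
FPKM on a log axis for all 46 genes by family, with a point per library, ELAPOR1 left of vector. Levels span from EPN3, at 0.0817 FPKM over the 6 libraries, to CLTA, at 44.9 FPKM, and only EPN2 and AP1M2 show a wide gap between the groups.

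Summed over each family, the FPKM of most coat components differed little between the groups. The AP-1 and AP-3 sums were nonetheless lower in every ELAPOR1 library than in every vector library. The AP-4 sum went the other way, at 12.8 to 13.3 FPKM in ELAPOR1 libraries and 11.9 to 12.5 FPKM in vector libraries. FPKM divides by the library total, of which ELAPOR1 itself took 2.06% to 2.12% in ELAPOR1 libraries and at most 0.00116% in vector libraries. By construction this lowers the FPKM of other genes in ELAPOR1 libraries. How much of the lower AP-1 and AP-3 sums it accounts for was not tested. The 4 clathrin chain genes summed to 105 ± 4.51 FPKM in ELAPOR1 cells and 112 ± 4.59 FPKM in vector cells. The 5 AP-2 genes summed to 108 ± 1.37 FPKM in ELAPOR1 cells and 109.9 ± 1.97 FPKM in vector cells, and the 8 AP-1 genes to 104 ± 3.91 and 113 ± 2.99 FPKM. The 6 AP-3 genes summed to 94.2 ± 1.17 FPKM in ELAPOR1 cells and 100.2 ± 1.52 FPKM in vector cells (SD, n = 3 each). The epsin sum was the family value that differed most, and that difference is the one of EPN2 given above. The groups did not overlap in CPM for 19 of the 45 tested genes, or 42.2%, against 33.8% of all tested genes. Replicates were close: the median coefficient of variation of the 45 genes was 3.68% in ELAPOR1 libraries and 4.25% in vector libraries, against 6.88% and 7.21% over all tested genes. AP1M2 in vector libraries was the most variable, at 63.2%. In bulk RNA, fewer cells expressing a gene and less RNA per cell cannot be told apart.

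Beyond the 46 genes, a companion list of 69 other genes of clathrin coats, endocytosis and Golgi sorting was read from the same fit. Of the 59 that could be tested, 6 were higher (background 10.0%) and 11 lower (background 11.4%) by edgeR, with a median log2 fold change of -0.06. The 6 higher became 3 without ELAPOR1 replicate 2 and 2 without vector replicate 2, and with library sizes alone the split was 2 higher and 14 lower. PIK3C2A, a clathrin-binding phosphoinositide kinase, was at 298 ± 7.92 CPM in ELAPOR1 cells and 201 ± 5.47 CPM in vector cells and rose (log2 fold change 0.57, edgeR adjusted p = 8.58e-23). ARF1, the GTPase that recruits AP-1 and the GGAs, was at 242 ± 1.91 CPM in ELAPOR1 cells and 323 ± 6.89 CPM in vector cells and fell (log2 fold change -0.42, edgeR adjusted p = 2.13e-17). FNBP1L, a membrane-curving F-BAR protein gene, had a log2 fold change of -0.34 (edgeR adjusted p = 4.12e-10), and HSPA8, the chaperone that strips clathrin from vesicles, -0.24 (5.67e-13). The calls of these 4 genes held in all 17 alternative settings. AAK1, a kinase of the AP-2 mu chain, had -0.32 (0.00486, but 0.0503 without ELAPOR1 replicate 1 and 0.0596 without vector replicate 1). The arrestin gene ARRB2 had -0.25 (0.0103, but 0.0971 without ELAPOR1 replicate 2 and 0.0651 without vector replicate 2), and the AP-5 gene AP5B1 -0.25 (0.00342). TEPSIN, an AP-4 partner with an epsin-like domain, had 0.30 (edgeR adjusted p = 0.0442), a call lost without ELAPOR1 replicate 2 or 3 (0.0929 and 0.229) or vector replicate 1 or 2 (0.153 and 0.103). The call of AP5B1 was lost without vector replicate 3, at 0.05003. None of the 59 changed by as much as EPN2 or AP1M2: their log2 fold changes ran from -0.42 to 0.57.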

How the data were processed

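The submitters' processing notes name HTSeq (0.6.1), HISAT2 (2.0.1), cutadapt (1.9.1), the package DESeq2 and the build GRCh38. The authors deposited raw read counts per gene and FPKM values (142222 of 142222 checked lie within 0.01 of the count per exonic length and library total), as well as their own log2 fold changes with adjusted p-values. Columns were matched by name: K was taken to be KIAA1324, an older symbol of ELAPOR1, and NC to be the negative control. The sources used here do not give the strand setting of the counting.

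The counts entered edgeR (4.0.16, R 4.3.3) with filterByExpr and TMM scaling, also used for CPM, and the two-sided quasi-likelihood test was adjusted by Benjamini-Hochberg (threshold 0.05). The script was checked on simulated data. SE is the size of the log2 fold change divided by the square root of its F. The genes, the lists and the rule for values in each library (ELAPOR1, epsins, AP-1, called changes of at least 0.3, the most abundant gene of each family, the 8 largest companion calls) were chosen with earlier results of these data known; the other called genes were added after their values were seen. Exon overlaps are from GENCODE 29 and cover only genes with deposited counts. Not every overlap found is named above. Start and end in GENCODE 29 match those deposited for 22 of the 46 genes, so overlaps may differ in the annotation used for counting. Intervals cover counting error only. Replicates differed by more than sampling noise (chi-square per gene 2.46 to 3.67), so each library counts as 1. Alternatives were DESeq2 (1.42.0) with a default or local trend, RLE factors, library sizes alone, other filters, limma (3.58.1) on log FPKM, a replicate block, ELAPOR1 left out, a stricter threshold, and each library left out. A further marker list is not reported here.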

Additional observations from a re-analysis of the deposited data

How the results depend on the processing

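Of the 12 called genes among the 45, EPN2, AP1M2 and AP1S2 kept their calls in all 17 alternatives, 9 lost theirs in at least 1, and 0 reversed. The authors' own deposited comparison has 4 of the 46 genes higher and 5 lower at an adjusted p under 0.05, all called here too. EPN1, AP3S1 and AP1S1 were not among them (authors' adjusted p = 0.0539, 0.0511 and 0.363). The authors' values match those of the alternative with DESeq2's local trend, so their comparison is not a separate check. That alternative called 3263 genes over all genes. With limma on FPKM, AP1M2 had a log2 fold change of 1.17 with a pseudocount of 1 and 2.87 with 0.1, where a pseudocount shrinks low genes by construction. The difference in its log2 ratio to AP1M1 was 2.93 and 1.22 with 0.1 and 1 FPKM added, and that of EPN2 to EPN1 -3.51 and -2.91.

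Counts of calls moved more. Over all genes, 3427 became 2133 with limma and a pseudocount of 1 FPKM, 2098 with 0.1 FPKM, 1378 with 1 FPKM and no filter and 2245 at an adjusted p under 0.01. The 5 higher genes became 2 with DESeq2's default trend, with library sizes alone, with limma on either pseudocount and at 0.01, 3 with no filter on counts and 1 with limma and no filter. The 7 lower genes became 4 with limma and no filter and 4 at 0.01. The 6 higher companions became 2 with DESeq2's default trend, with library sizes alone and at 0.01, 3 with no filter on counts and 1 with limma under each setting, and the 11 lower became 5 with limma and no filter. A stricter threshold gives fewer by construction, and for the rest the cause was not tested. Leaving out 1 library gave 2723 to 3187 genes, 2 to 5 higher and 3 to 7 lower genes, and 2 to 5 higher and 8 to 11 lower companions.

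Same-numbered libraries did not deviate together (correlations of -0.02, -0.03 and -0.02), and the main fit did not pair them. These values cannot tell whether same-numbered libraries were prepared together, which the labels do not say. With the replicate block 3361 genes were called, and 4 higher and 6 lower of the 45, EPN1 and AP3S1 being lost at adjusted p of 0.0531 and 0.0555. Blocked by number, the differences in log2 ratio of -3.60 and 3.75 had an exact p of 0.25, the smallest 3 pairs allow. Depth limits AP1M2 in vector cells and EPN3 in both groups.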
